A study of Mus musculus with 12 samples.

Results

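The RNA exosome is a barrel-shaped complex that degrades and trims RNA from the 3′ end, and the 10 genes described here encode its subunits: Exosc1, Exosc2 and Exosc3 of the cap, Exosc4, Exosc5, Exosc7, Exosc8 and Exosc9 of the ring, and the nucleases Exosc10 and Dis3. They were taken by gene symbol from a table of 31091 genes, where all 10 were found, and all 10 were among the 13538 genes that were tested. The ring subunits resemble bacterial RNase PH but have lost catalytic activity, the cap subunits carry RNA-binding domains at the entry of the channel, and cleavage is done by Dis3 and Exosc10. In the nucleus the complex matures ribosomal RNA and small nucleolar RNA (snoRNA) ends and removes faulty transcripts, and in the cytoplasm it takes part in mRNA decay. In humans, inherited mutations of EXOSC3, EXOSC8 and EXOSC9 are known from disorders in which the cerebellum is underdeveloped or degenerates.

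The libraries came from granule cell progenitors, cells that divide after birth in the outer cerebellum and give rise to granule neurons. At postnatal day 3 (P3) there were 3 samples from mice with a Znhit3 conditional knockout (cKO) and 3 from control mice, whose genotype is labelled WT. ZNHIT3 is a zinc-finger protein known to assist in the assembly of box C/D snoRNA particles. The labels name neither the Cre line, the floxed allele nor any pooling of animals. They do not say whether the samples of a group came from separate animals, so a p-value here measures only how these samples scatter, and that scatter may be technical. The 6 samples from postnatal day 6 were not analysed here. A further ring subunit gene, Exosc6, was not analysed here.

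Levels are given in FPKM (read counts scaled by gene length and library size, made by the authors). Differences are the cKO mean less the control mean of log2(FPKM + 1) values, taken from limma, a moderated linear model fitted over all tested genes, and are given with the standard error (SE) and a Benjamini-Hochberg adjusted p. A gene was called at an adjusted p under 0.05, and the scale understates changes of genes with low values. Summed over genes, the reads recovered from FPKM numbered between 29119803 and 40281292 in cKO libraries and between 32278245 and 52961445 in control libraries. Znhit3 itself (ENSMUSG00000020526) had 4.03, 4.01 and 4.57 FPKM in cKO libraries, against 9.15, 8.62 and 8.58 FPKM in control libraries. The cKO mean was 47.8% of the control mean, with a difference of -0.91 ± 0.06 (SE) and an adjusted p of 0.00024. By exact permutation of the libraries (two-sided) p was 0.1, and 3 against 3 libraries cannot give a smaller one.

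No exosome subunit gene passed the test between cKO and control at P3. Limma called 0 of the 10, with 1 at an unadjusted p under 0.05, where 19.1% of all tested genes were called and 35.8% had an unadjusted p under 0.05. The differences lay between -0.13 for Exosc7 and 0.047 for Dis3, with adjusted p-values between 0.13 and 0.96. The cKO means were between 90.0% and 104% of the control means. As cKO to control ratios of FPKM + 1, the 95% intervals of the 10 differences reached down to 0.796, for Exosc1. They reached up to 1.16, for Exosc9. Ratios of FPKM itself reach further: with a pseudocount of 0.1 the lower end for Exosc1 was a log2 difference of -0.36, against -0.33. Changes smaller than these intervals could not be seen with 3 libraries in each group. Each subunit was covered by between 704 and 5861 reads in a library, which puts the counting error at the lowest coverage of each gene between 1.84% and 3.77%. The coefficient of variation between libraries of a group ran from 0.724% to 13.4%.

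**Figure D1:**
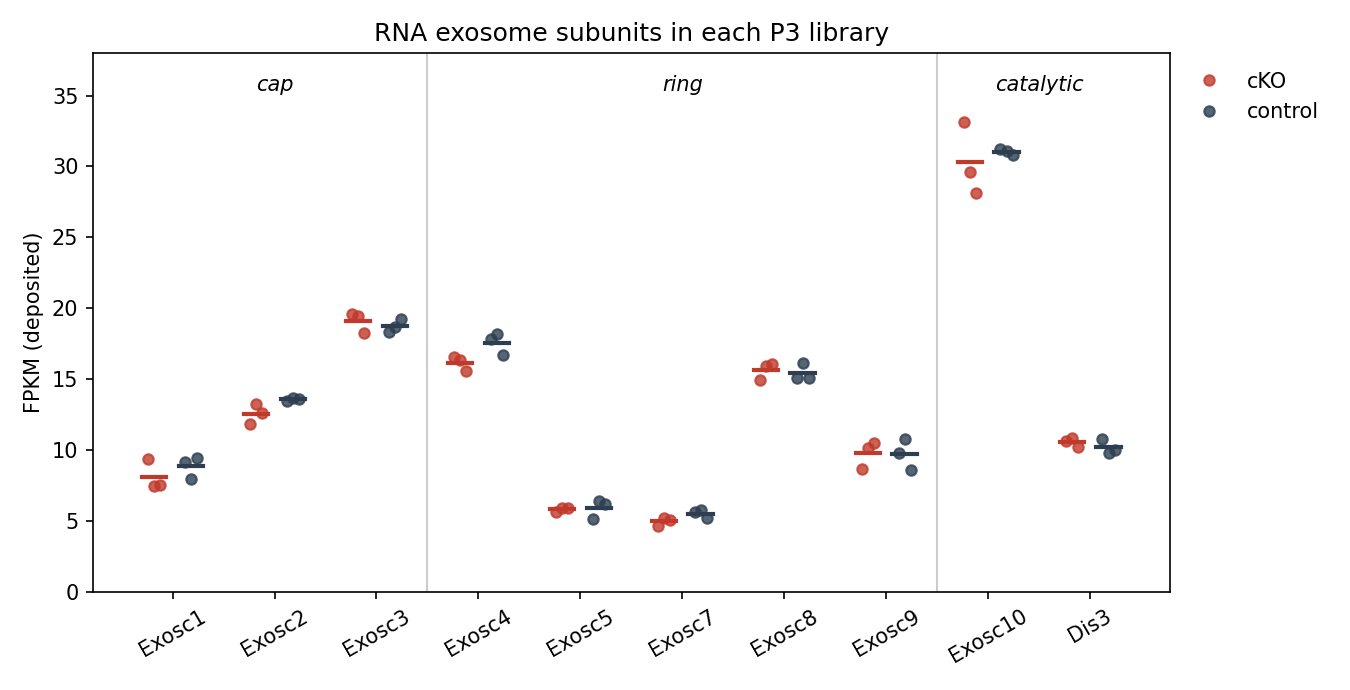
Deposited FPKM of the 10 exosome subunit genes in each P3 library (points) with group means (horizontal bars), cKO left of control for each gene, on a linear axis that starts at 0. The cKO and control points overlap for 8 of the 10 genes, and Exosc2 and Exosc4 have all cKO points below all control points.

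Among the cap subunits, which line the entry of the channel, Exosc2 had 11.8, 13.2 and 12.6 FPKM in cKO libraries, against 13.4, 13.7 and 13.6 FPKM in control libraries. All 3 cKO values of Exosc2 were below all 3 control values, and the control values were nearly identical. Their coefficient of variation, 0.951%, was below the counting error of this gene at its lowest coverage, 3.08%, which was in cKO replicate 3 and not in a control library. Its difference of -0.11 ± 0.05 (SE), with a 95% interval from -0.22 to 0.0076, did not pass the threshold (adjusted p of 0.16). Exosc1 encodes another RNA-binding subunit of the cap. It had 9.35, 7.42 and 7.52 FPKM in cKO libraries, against 9.14, 7.96 and 9.41 FPKM in control libraries. Replicate 1 of cKO stood with the control libraries and replicate 2 of control stood nearer to the other cKO libraries, so the groups overlapped. Its mean was 8.10 ± 1.09 FPKM in cKO and 8.84 ± 0.77 FPKM in control libraries (SD, n = 3 each), with a difference of -0.12 ± 0.09 (SE) and an adjusted p of 0.40. Exosc3 is among the subunit genes with human cerebellar disease alleles named above. It had 19.6, 19.4 and 18.3 FPKM in cKO libraries, against 18.3, 18.7 and 19.2 FPKM in control libraries. The values of Exosc3 interleaved, and the difference was 0.026 ± 0.045 (SE) with an adjusted p of 0.71.

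The ring subunits form the body of the barrel. Exosc4 had 16.6, 16.3 and 15.6 FPKM in cKO libraries, against 17.8, 18.1 and 16.7 FPKM in control libraries. The groups of Exosc4 did not overlap, though the highest cKO value and the lowest control value were close together. It was the member with the smallest unadjusted p (0.045), but the adjusted p was 0.13, for a difference of -0.11 ± 0.05 (SE). Exosc7 had 4.63, 5.20 and 5.02 FPKM in cKO libraries, against 5.59, 5.73 and 5.18 FPKM in control libraries. One cKO value of Exosc7 lay just above the lowest control value. The difference was -0.13 ± 0.06 (SE) with an adjusted p of 0.16, and with quantile normalization it was -0.21 with an adjusted p of 0.047, the 1 setting in which a member was called. Groups without overlap were thus seen for 2 of the 10 members, Exosc2 and Exosc4, and for 40.5% of all tested genes. Both were lower in cKO, as were 13.2% of all tested genes. No member had all cKO values above all control values, a pattern that 27.3% of tested genes showed.

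The cKO and control values of the other ring genes overlapped. Exosc8 had 14.9, 15.9 and 16.1 FPKM in cKO libraries, against 15.1, 16.1 and 15.1 FPKM in control libraries, a difference of 0.019 ± 0.048 (SE) and an adjusted p of 0.80. Exosc5 had 5.64, 5.91 and 5.91 FPKM in cKO libraries, against 5.14, 6.38 and 6.16 FPKM in control libraries, with an adjusted p of 0.93. The 3 cKO values of Exosc5 lay inside the range of the control values. Exosc9, which encodes a known autoantigen of human muscle and skin autoimmunity, had 8.67, 10.1 and 10.5 FPKM in cKO libraries, against 9.80, 10.8 and 8.55 FPKM in control libraries. Its spread within each group was among the widest of the ring, and the difference of 0.0076 ± 0.091 (SE) had an adjusted p of 0.96.

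Of the nucleases, Dis3 encodes the enzyme at the bottom of the channel, which has exonuclease and endonuclease activity, and Exosc10 encodes the mainly nuclear and nucleolar nuclease near the cap. Exosc10 had 33.1, 29.6 and 28.1 FPKM in cKO libraries, against 31.2, 31.1 and 30.8 FPKM in control libraries. The control values of Exosc10 sat within a narrow band, and the cKO values fell on both sides of it. That band, with a coefficient of variation of 0.724%, was narrower than the counting error at the lowest coverage, 1.84%, which was in cKO replicate 3. Its mean was 30.3 ± 2.59 FPKM in cKO and 31.0 ± 0.22 FPKM in control libraries (SD, n = 3 each), with a difference of -0.037 ± 0.060 (SE) and an adjusted p of 0.69. Dis3 had 10.6, 10.8 and 10.2 FPKM in cKO libraries, against 10.7, 9.75 and 10.0 FPKM in control libraries, with a difference of 0.047 ± 0.050 (SE) and an adjusted p of 0.53. The groups of Dis3 overlapped. With the deposited gene lengths Exosc10 exceeded Dis3 in every library, by 3.13, 2.74 and 2.76 times in cKO libraries. In control libraries it did so by 2.91, 3.19 and 3.08 times. With the length of the principal protein-coding transcript the means over the 6 libraries were 39.5 and 15.6 FPKM, so the ratio depends on the length used.

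Summed by role, the cKO and control libraries overlapped for the cap, the ring and the nucleases. The 5 ring genes together had 52.3 ± 1.65 FPKM in cKO and 54.1 ± 2.81 FPKM in control libraries (SD, n = 3 each). The 3 cap genes had 39.7 ± 1.24 FPKM in cKO and 41.1 ± 0.96 FPKM in control libraries, and the 2 nuclease genes 40.8 ± 2.75 FPKM in cKO and 41.2 ± 0.67 FPKM in control libraries. The sum over all 10 genes was 134.9, 134.0 and 129.7 FPKM in cKO libraries, against 136.3, 138.3 and 134.6 FPKM in control libraries. On these sums the cKO mean was 97.4% of the control mean, and the highest cKO sum lay just above the lowest control sum.

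The direction of the small differences depended on the scale, and their place among other genes did so less. Of the 10 members 6 had a negative difference, against 42.1% of all tested genes. The median member difference was -0.024, beside a median of 0.032 over all tested genes. With TPM scaling, in which all libraries have the same sum, 4 members were negative and these medians were 0.015 and 0.075, and with quantile normalization 7 were negative and the medians were -0.063 and -0.0027. In the authors' deposited table all 10 log2 fold changes were negative, from -0.20 for Exosc7 to -0.0032 for Dis3, with a median of -0.080 beside -0.015 over the same tested genes. The authors' deposited table called 0 of the 10 at an adjusted p under 0.05 (25.5% of the tested genes) and held 3 with an unadjusted p under 0.05 (36.6% of the tested genes), namely Exosc2, Exosc4 and Exosc7. The lowest adjusted p of a member in the authors' deposited table was 0.054, for Exosc7.

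**Figure D2:**
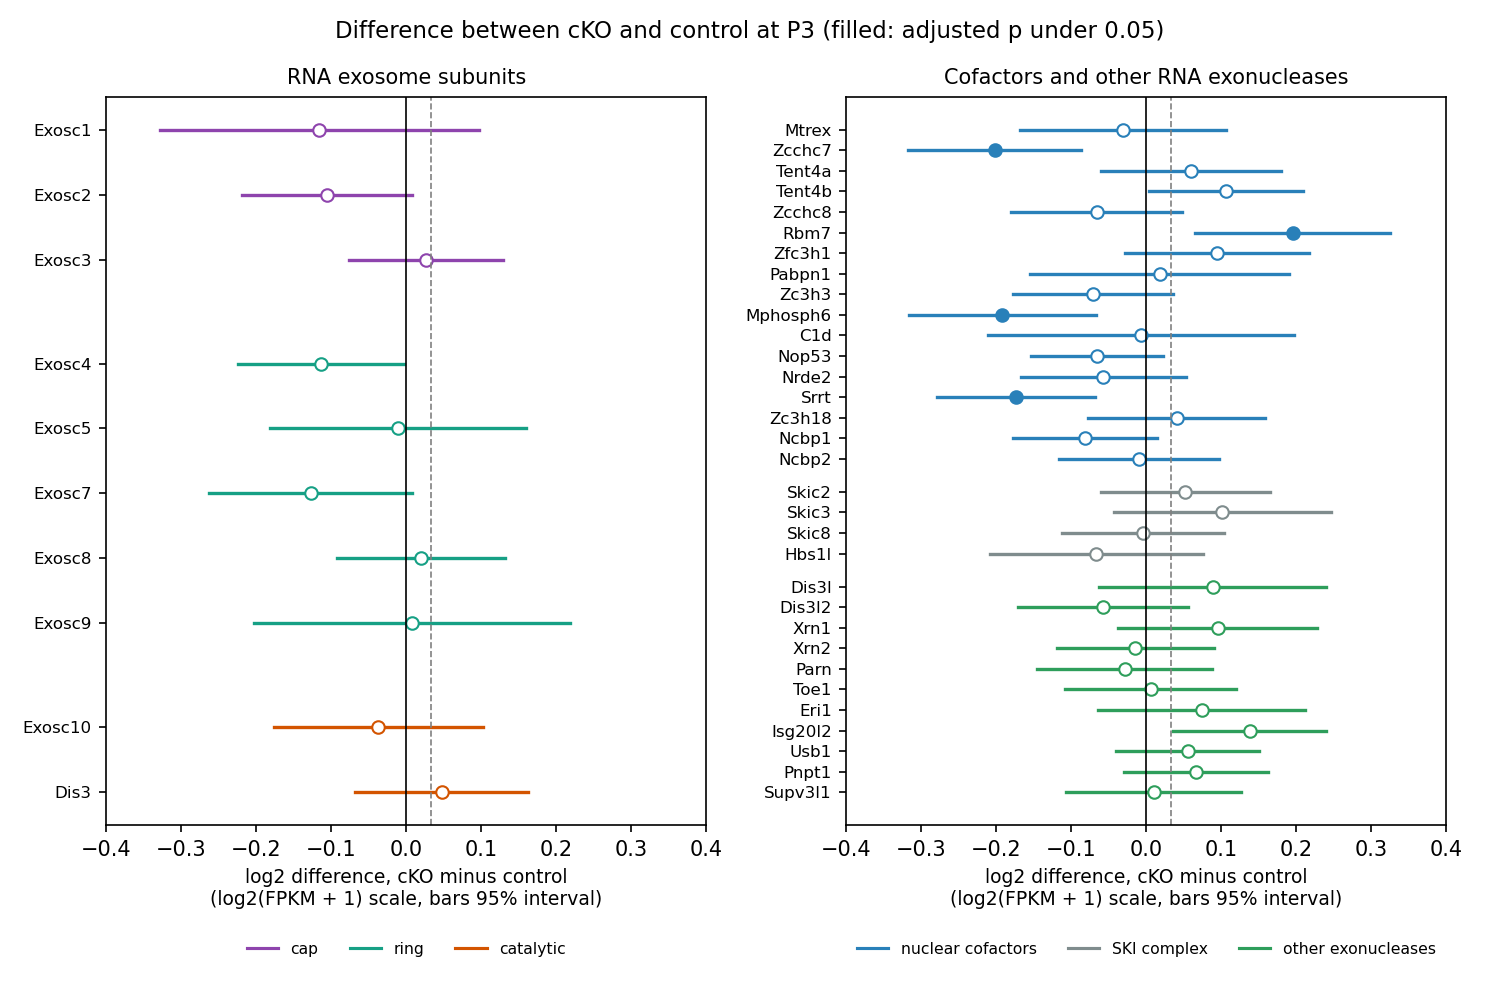
Log2 difference (cKO minus control, log2(FPKM + 1) scale) with its 95% interval for the exosome subunits (left) and for 32 cofactor and exonuclease genes (right); filled points have an adjusted p under 0.05 in limma, the solid line marks 0 and the dashed line the median of all tested genes, 0.032. All 10 subunits have open points, and 4 nuclear cofactors have filled ones.

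Among factors that bring RNA to the nuclear exosome, limma called 4 of 17, beside 19.1% of all tested genes, and with no filter on low values or with the replicate block it called 0. Of the 17, 3 fell (5.74% of all tested genes did), 1 rose (13.4% of all tested genes did) and 13 did not pass, and the median difference was -0.031. Srrt encodes ARS2, which links the nuclear cap-binding complex to RNA decay. It had 60.6, 57.8 and 55.3 FPKM in cKO libraries, against 66.4, 64.3 and 65.7 FPKM in control libraries, a fall of -0.17 ± 0.05 (SE) with an adjusted p of 0.035. Srrt was the most abundant of the list, and its groups did not overlap. Zcchc7, the gene of the zinc-knuckle RNA-binding subunit of the TRAMP polyadenylation complex, had 3.91, 3.86 and 3.82 FPKM in cKO libraries, against 4.43, 4.73 and 4.63 FPKM in control libraries, with a difference of -0.20 ± 0.05 (SE) and an adjusted p of 0.028. Mphosph6, the gene of an exosome-associated protein of ribosomal RNA maturation, had 16.6, 15.7 and 14.9 FPKM in cKO libraries, against 17.3, 18.2 and 19.0 FPKM in control libraries (difference -0.19 ± 0.05 (SE), adjusted p of 0.043). Both genes had all cKO values below all control values.

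Rbm7 encodes the RNA-binding subunit of the nuclear exosome targeting (NEXT) complex. It rose to 15.3, 16.2 and 17.5 FPKM in cKO libraries, against 14.2, 13.6 and 14.6 FPKM in control libraries, a difference of 0.20 ± 0.06 (SE) and an adjusted p of 0.047 and no overlap of the groups. Mtrex, the gene of the helicase shared by TRAMP and NEXT, averaged 17.9 ± 0.72 FPKM in cKO and 18.4 ± 1.34 FPKM in control libraries (SD, n = 3 each), with an adjusted p of 0.74. Zcchc8, the scaffold gene of NEXT, averaged 15.9 ± 0.80 FPKM in cKO and 16.7 ± 0.49 FPKM in control libraries (adjusted p of 0.37). The 4 calls had small margins: leaving out cKO replicate 2, cKO replicate 3, control replicate 2 or control replicate 3 ended all 4, and leaving out cKO replicate 1 or control replicate 1 left 3 and 2. The authors' deposited table had 5 of the 17 cofactors as lower at an adjusted p under 0.05 and 0 as higher, where 13.4% of the tested genes were lower and 25.5% passed in either direction. The 5 in the authors' deposited table were Zcchc7, Mphosph6 and Srrt, with adjusted p-values of 0.000201, 0.0049 and 1.8e-05, and Ncbp1 and Nop53, with 0.023 and 0.045. Rbm7 had a positive fold change in the authors' deposited table and an adjusted p of 0.070.

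The SKI complex feeds mRNA to the cytoplasmic exosome. Limma called none of 4 genes, Skic2, Skic3 and Skic8 of that complex and Hbs1l beside them. Of these, 0 had an unadjusted p under 0.05. Over all tested genes 19.1% were called and 35.8% had an unadjusted p under 0.05. The helicase gene Skic2, the most abundant of them, averaged 25.4 ± 1.03 FPKM in cKO and 24.5 ± 1.03 FPKM in control libraries (SD, n = 3 each), and the list median was 0.024. Of 11 genes of other RNA exonucleases, among them the gene of a mitochondrial helicase partner (Supv3l1), limma called 0 and 1 had an unadjusted p under 0.05, with a median difference of 0.055, beside the same shares over all tested genes. That gene was Isg20l2, which encodes a nucleolar exonuclease of ribosomal RNA maturation and was picked out after its values were seen. It had 26.4, 25.4 and 24.3 FPKM in cKO libraries, against 22.8, 22.6 and 23.3 FPKM in control libraries, with an adjusted p of 0.063. Xrn2, the nuclear 5′ to 3′ exonuclease gene and the most abundant of this list, averaged 41.8 ± 0.54 FPKM in cKO and 42.2 ± 1.96 FPKM in control libraries. The exosome nuclease paralogs Dis3l and Dis3l2 averaged 5.68 and 5.62 FPKM in cKO libraries, against 5.30 and 5.89 FPKM in control libraries, with adjusted p-values of 0.37 and 0.43.

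The defining markers of the granule lineage were present, with Atoh1 between 32.8 and 41.3 FPKM over the 6 libraries. Of 8 such markers 3 fell and none rose, and their sum was 784 to 809 FPKM in cKO libraries, against 907 to 1001 FPKM in control libraries. Markers of other cell types moved with genotype in the same libraries. For scale, limma called 13.4% of all tested genes higher in cKO and 5.74% lower. All 7 endothelial markers rose (sum 211 to 228 FPKM in cKO, against 118 to 129 FPKM in control libraries), as did all 5 GABAergic interneuron markers (50.3 to 55.8 FPKM in cKO, against 32.8 to 36.6 FPKM in control libraries) and all 4 pericyte markers (43.7 to 45.3 FPKM in cKO, against 27.0 to 28.7 FPKM in control libraries). Rises were also called for 4 of 4 erythroid markers (sum 1628 to 1863 FPKM in cKO, against 1164 to 1451 FPKM in control libraries) and 3 of 5 microglial markers (62.9 to 70.2 FPKM in cKO, against 45.8 to 46.5 FPKM in control libraries). The same held for 4 of 5 astroglial markers (806 to 833 FPKM in cKO, against 772 to 794 FPKM in control libraries), 3 of 4 oligodendrocyte lineage markers (91.7 to 100.2 FPKM in cKO, against 73.1 to 80.9 FPKM in control libraries) and 3 of 4 Purkinje cell markers (11.4 to 12.0 FPKM in cKO, against 8.48 to 9.84 FPKM in control libraries). The astroglial marker not called, Fabp7, had a negative difference of -0.082 (limma adjusted p of 0.32). Pdgfra, the oligodendrocyte lineage marker not called, had -0.13 (limma adjusted p of 0.062), with all cKO values below all control values. Of 5 choroid plexus markers 4 fell (sum 623 to 702 FPKM in cKO, against 1334 to 1421 FPKM in control libraries). No marker was at 0 in all libraries. Pcp2 of Purkinje cells and Kl of choroid plexus averaged under 1 FPKM and so were not tested, and every tested marker of these lists was called. In bulk RNA fewer cells of a type and less RNA per cell cannot be told apart, and the part of these shifts in the cofactor calls was not tested.

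The order of the subunits by level depended on the gene length used. With the deposited length, which spans 1324 to 7754 bases for these genes, the means over the 6 libraries ran from 30.7 FPKM for Exosc10 to 5.23 FPKM for Exosc7. In between came Exosc3 (18.9 FPKM), Exosc4 (16.8 FPKM), Exosc8 (15.5 FPKM), Exosc2 (13.0 FPKM), Dis3 (10.3 FPKM), Exosc9 (9.74 FPKM), Exosc1 (8.47 FPKM) and Exosc5 (5.86 FPKM). The library ranges overlapped between the neighbours Exosc4 and Exosc8, Dis3 and Exosc9, Exosc9 and Exosc1, and Exosc5 and Exosc7. The deposited lengths were 1.08 (Exosc4) to 5.71 (Exosc7) times as long as the principal protein-coding transcript in GENCODE M21.

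With the length of that transcript in its place, Exosc8 was highest with a mean of 51.7 FPKM over the 6 libraries and Dis3 lowest with 15.6 FPKM. Exosc7 then reached 29.8 FPKM and stood in place 4 instead of 10, Exosc1 reached 33.7 FPKM and Exosc5 21.8 FPKM, while Exosc4 moved little, to 18.2 FPKM. On this scale only Exosc8 and Exosc10, Exosc9 and Exosc3, and Exosc4 and Dis3 were neighbours in the order whose library ranges did not overlap. Which transcripts the reads came from was not tested, so neither order gives the true ratio of the subunit mRNAs. The choice of length rescales a gene equally in all libraries and leaves the ratio between genotypes as it was.

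**Figure D3:**
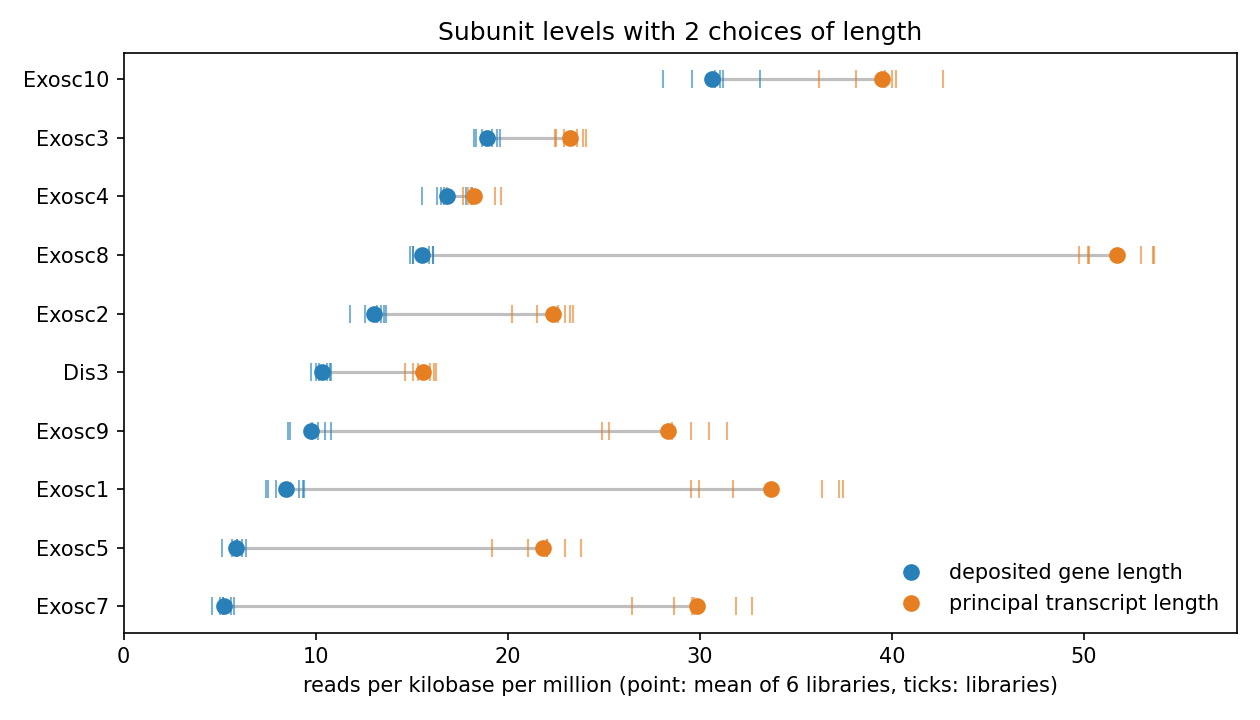
Level of each exosome subunit gene in FPKM, with the deposited gene length (blue) and with the length of the principal GENCODE transcript (orange); points are means of the 6 P3 libraries and ticks are single libraries. Exosc7 shifts from 5.23 to 29.8 and Exosc4 from 16.8 to 18.2.

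The subunit genes lie on 8 chromosomes, and many of them start beside another gene on the opposite strand. By the positions in the deposited table, 7 of the 10 had a protein-coding neighbour that starts head to head within 1000 bases, where 15.8% of the 12092 tested protein-coding genes had one. Exosc1 (chromosome 19, 41910731 to 41921862, minus strand) is 56 bases from Zdhhc16, and Exosc5 (chromosome 7, 25358589 to 25370793, plus strand) is 182 bases from Bckdha. Exosc7 (chromosome 9, 122942280 to 122965194, plus strand) is 9 bases from Zdhhc3, and Exosc8 (chromosome 3, 54636099 to 54642814, minus strand) is 145 bases from Alg5. The annotated starts of Exosc3 and Dcaf10, Exosc4 and Oplah, and Dis3 and Pibf1 overlap, by 632, 619 and 347 bases. The build of the deposited positions is not stated in the table; 9 of the 10 members start elsewhere in GRCm38.

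The bases between the starts of 3 such pairs are shown because they form the stretch that a subunit gene and its neighbour share and hold no annotated exon. They are RefSeq promoter sequence of GRCm38.p6, cut at the GENCODE M21 gene ends and written 5′ to 3′ on the strand of the subunit gene, and capitals mark matches to the motifs listed after them. Exosc1 to Zdhhc16 is chr19:41933424-41933479 (minus strand), Exosc5 to Bckdha is chr7:25658982-25659163 (plus strand) and Exosc8 to Alg5 is chr3:54735394-54735538 (minus strand).
Exosc1 and Zdhhc16: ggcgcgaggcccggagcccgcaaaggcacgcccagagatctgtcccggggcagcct
Exosc5 and Bckdha: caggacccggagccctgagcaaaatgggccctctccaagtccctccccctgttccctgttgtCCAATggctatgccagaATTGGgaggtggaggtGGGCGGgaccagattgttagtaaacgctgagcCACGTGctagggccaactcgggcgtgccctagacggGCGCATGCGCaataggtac
Exosc8 and Alg5: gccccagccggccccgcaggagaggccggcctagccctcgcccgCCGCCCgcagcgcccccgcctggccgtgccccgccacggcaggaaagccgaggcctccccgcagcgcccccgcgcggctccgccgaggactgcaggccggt

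In the stretch of Exosc5 the capitals mark CCAAT, the letters bound by NF-Y, once on each strand, the SP factor motif GGGCGG, the E-box CACGTG and the NRF1 motif. The stretch of Exosc8 held GGGCGG on the opposite strand, and that of Exosc1 held no motif searched. RefSeq promoter windows of 300 bases around the start were matched for 8 of the 10 members. On either strand, GGGCGG occurred in the windows of 7 of these 8 members and in 35.7% of all 32851 windows. The letters CCAAT occurred for 4 of the 8 members and in 37.4% of all windows. The ETS factor motif CCGGAAG occurred for Dis3, Exosc3 and Exosc10 and in 8.86% of all windows. Among the members, Exosc5 alone held the E-box, present in 7.15% of all windows, and the NRF1 motif, present in 0.971%. No member held the YY1 motif ATGGCGGC, present in 2.24% of all windows, or the TATA box letters TATAAA, present in 13.6%. None of the motifs contains another, and a match describes letters, not a bound site.

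The head-to-head neighbours were not called either: limma called 0 of the 7 (19.1% of all tested genes were called), with 4 positive and 3 negative differences. For 3 of them (Dcaf10, Zdhhc3 and Pibf1) the 95% interval did not include 0, which is an unadjusted p under 0.05, as 35.8% of all tested genes had. Zdhhc3, which encodes a palmitoyltransferase, had 8.85, 8.89 and 8.96 FPKM in cKO libraries, against 8.09, 7.63 and 8.33 FPKM in control libraries, a difference of 0.14 ± 0.05 (SE) and an adjusted p of 0.076. All 3 of its cKO values lay above all 3 control values, while Exosc7, which starts 9 bases away, had a difference of -0.13. Pibf1, which encodes a centrosomal protein, had 1.56, 1.64 and 1.58 FPKM in cKO libraries, against 1.87, 1.88 and 1.96 FPKM in control libraries, a difference of -0.16 ± 0.06 (SE) and an adjusted p of 0.11, beside 0.047 for Dis3. The authors' deposited table listed Pibf1 as lower (adjusted p of 0.010). The difference between the genes of a pair was not tested. Alg5, Bckdha and Zdhhc16 had adjusted p-values of 0.67, 0.83 and 0.98.

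**Figure D4:**
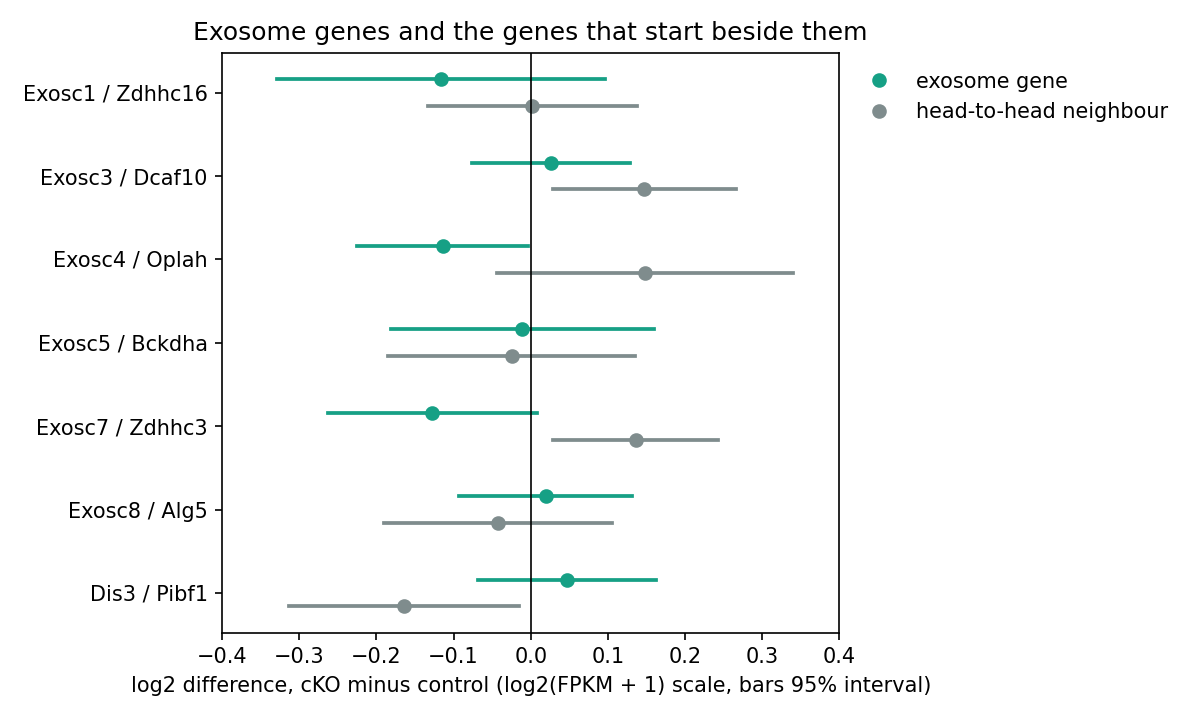
Log2 difference (cKO minus control, log2(FPKM + 1) scale) with its 95% interval for 7 exosome genes (green) and the protein-coding gene that starts head to head with each (grey). None of the 14 genes was called, and the points of Exosc7 and Zdhhc3 lie at -0.13 and 0.14.

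Gene overlaps limit how cleanly reads can be assigned, since the use of strand in counting is not given in the sources used here. By the deposited positions 8 of the 10 members overlap another gene, coding or not, on the opposite strand. The share of all tested genes that do so was not counted. For Exosc3, Exosc4 and Dis3 the overlapping gene is the head-to-head neighbour. Exosc9 shares 863 bases at its end with Ccna2, the gene of the mitotic cyclin A2, which is several times more abundant. Ccna2 had 62.9, 65.1 and 66.6 FPKM in cKO libraries, against 72.2, 70.3 and 75.7 FPKM in control libraries, a fall of -0.16 ± 0.05 (SE) with an adjusted p of 0.042 and no overlap of the groups. Leaving out any 1 of the 6 libraries ended that call. The part of Ccna2 reads in the Exosc9 value was not tested.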

How the data were processed

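RNA of 6 P3 libraries was compared, 3 per genotype, and 6 further samples of the series were not analysed here. The RNA was selected for poly(A) and its second cDNA strand marked with dUTP, per the labels' protocols. Named without roles in the submitters' processing notes are mm10, cutadapt 1.9, HISAT2 2.2.1, StringTie 2.1.6, DESeq2 and edgeR. Neither the annotation nor the strand setting of the counting is given in the sources used here. For P3, 1 table deposited by the authors was used. Per the file headers it gives FPKM per gene and library; 3 columns are headed WT, and the other 3, headed ZM, were assigned to cKO since only cKO samples remain among the P3 labels. The authors' own test stands beside them as deposited: mean signal, log2 fold change with error, test score, p-value and adjusted p-value.

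Multiplied by the deposited length, all FPKM values were whole reads within 0.02 reads, which gave depths and coverage. For 1 kb of gene, 3 reads amount to 0.057 to 0.103 FPKM, depending on the library. The floors and counting errors taken from reads leave out the variation between samples. No replicate pair agreed within counting noise (chi-square over its degrees of freedom 4.38 to 9.71).

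A gene was tested where its 6 values averaged 1 FPKM or more, using limma 3.58.1 in R 4.3.3 on log2(FPKM + 1), with an intensity trend, no covariates and a Benjamini-Hochberg threshold of 0.05. Intervals are 95% intervals of that fit. The fit was tested on simulated data, at a spread that was set and not fitted to these libraries. It recovered 29.2% of simulated 1.25-fold changes and 89.4% of simulated 1.5-fold changes. Only 46 to 48 tested genes were changed at each simulated fold, far fewer than the 2590 called in the data. These shares therefore do not give the power of the comparison itself. Members, gene lists and marker lists were chosen with earlier results of these data known. The rule named all members, Znhit3, and the called and the most abundant genes of each cofactor list. Isg20l2, further cofactors, the neighbouring genes and the use of transcript length were chosen after values were seen. Transcript lengths are those of the APPRIS principal transcript in GENCODE M21. Head-to-head genes start on opposite strands within 1000 bases. Alternatives were another pseudocount, other filters and scalings, removal of a length trend, limma without trend or with array weights, voom on the recovered reads, a replicate block and leaving out each library.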

Additional observations from a re-analysis of the deposited data

How the results depend on the processing

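The call of 0 exosome members held in 17 of 18 alternatives, including the authors' deposited test, voom, every scaling but quantile normalization and every left-out library; with quantile normalization 1 member, Exosc7, was called. The negative differences of Exosc1, Exosc2, Exosc4 and Exosc7 and the positive ones of Exosc3 and Dis3 kept their sign in all 17 settings of the re-analysis, but in the authors' deposited table Exosc3 and Dis3 were negative, at -0.026 and -0.0032. Differences near 0 changed sign. Exosc5 was 0.027 and Exosc10 was 0.0021 with TPM scaling, and Exosc9 was -0.038 with quantile normalization and -0.0011 after removal of a length trend. With 1 library left out, Exosc5 ranged from -0.092 to 0.041, Exosc8 from -0.00042 to 0.051, Exosc9 from -0.073 to 0.083 and Exosc10 from -0.10 to 0.013. None of these passed the threshold.

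The 4 calls among cofactors and exonucleases became 0 with no filter on low values, 0 with the replicate block, 2 with quantile normalization and 1 without the trend, and between 0 and 3 with 1 library left out. Znhit3 was called in all 17 settings. Over all genes the 2590 calls became 1271 with no filter and 1542 with the replicate block, and between 1193 and 2170 with 1 library left out. Of the calls 70.0% were higher in cKO, against 56.8% with quantile normalization and 81.7% with TPM scaling. Same-numbered libraries did not deviate together (correlations of -0.024, 0.036 and -0.097 between cKO and control libraries of number 1, 2 and 3), so the numbers were not read as pairs. The cause of each shift was not tested. Depth limited precision to a counting error of 1.84% to 3.77% at the lowest coverage of the members, beside a spread within groups of 0.724% to 13.4%.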
